A study of Mus musculus with 30 samples.

Results

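The 10 genes described here were chosen by name as transcription factors of the trophectoderm, the outer epithelium of the blastocyst that forms the placental side of the embryo: Cdx2, Eomes, Gata2, Gata3, Tfap2a, Tfap2c, Tead4, Elf3, Id2 and Msx2. All 10 members had a row among the 49585 rows of the deposited expression table, and their values were compared in mouse 8-cell embryos between a Yy1 knockdown, aimed at the zinc finger factor YY1, and a control knockdown. The series holds 30 mouse samples on nucleosome positioning and YY1 in early embryos and embryonic stem cells. Of these, 4 RNA libraries of 8-cell embryos had a column in the table, and 26 were not analysed here. The Yy1 knockdown group was 2 libraries made with the siRNA numbered 1, and the control knockdown group was 2 libraries. Embryos of both groups came from a BDF1 x BDF1 cross and were cultured in KSOM, an embryo culture medium. The labels give neither the number of embryos pooled per library nor the control siRNA, and they do not say whether replicates were separate collections, so each p-value reflects library-to-library spread that may be technical. In these bulk libraries fewer cells of a type and less RNA per cell cannot be told apart.

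The trophectoderm is the first lineage to separate from the pluripotent cells, which become the inner cell mass. In outer cells the Hippo pathway is quiet, and the coactivators YAP and TAZ bind TEAD4, which switches on Cdx2 and Gata3. CDX2 then holds down pluripotency genes such as Pou5f1, and EOMES follows it, while TFAP2C acts on many of the same genes from the cleavage stages onward. At the 8-cell stage the embryo compacts and polarizes, and no trophectoderm has formed yet.

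Members covered a wide range of levels, with Tead4 and Tfap2c abundant and the other 8 at a few FPKM or less (fragments scaled to gene length and library size, so that genes can be compared per length). Over the 4 libraries Tead4 averaged 73.04 FPKM, Tfap2c 43.8, Gata3 3.95, Elf3 1.63, Cdx2 1.52, Eomes 0.473, Tfap2a 0.469, Id2 0.0938, Gata2 0.0639 and Msx2 0.0375 FPKM. By this mean Tead4 stood at rank 1060 of the 49585 rows, Tfap2c at 1637, Gata3 at 7455 and Cdx2 at 10673. No library overlapped between the neighbours Tead4 and Tfap2c, Tfap2c and Gata3, Gata3 and Elf3, or Cdx2 and Eomes in that order. Elf3 and Cdx2 overlapped, as did each neighbouring pair from Eomes down to Msx2. Within both groups the order of the leading 3 was also Tead4, Tfap2c and Gata3.

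**Figure D1:**
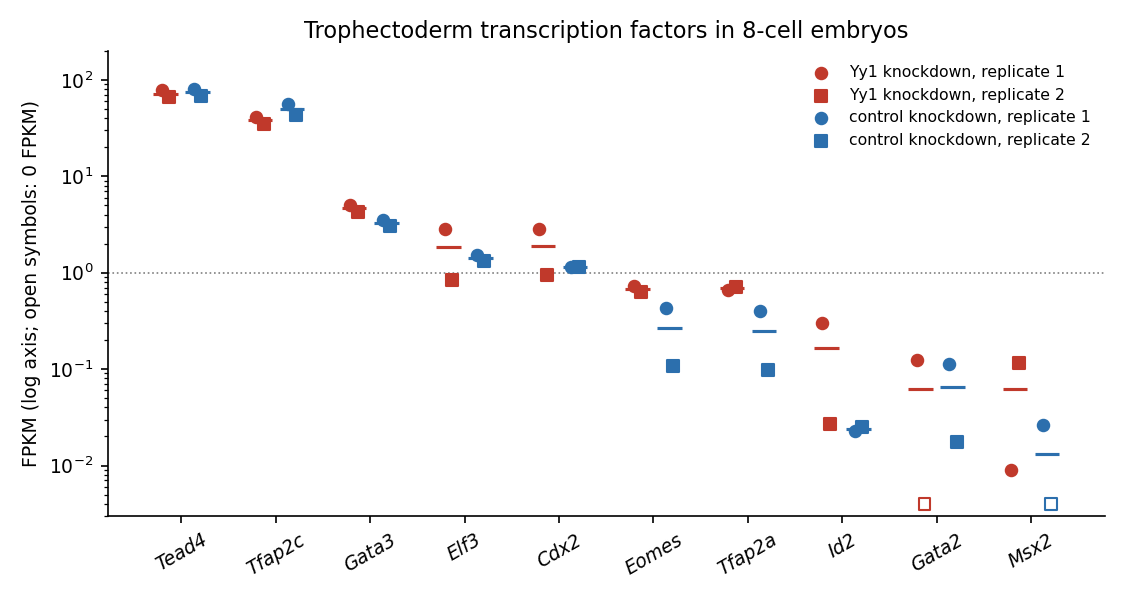
FPKM of each member on a log axis, with 1 point per library (circles replicate 1, squares replicate 2, open symbols 0 FPKM) and bars for group means. Yy1 knockdown libraries are red and control knockdown libraries blue, and the dotted line marks 1 FPKM, the level above which a gene was tested. Tead4 and Tfap2c lie above 35 FPKM in every library, Gata3 lies between 3.08 and 5.02 FPKM, and 5 members have a mean below the line.

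None of the 10 members passed a test of Yy1 knockdown against control. limma on log2(FPKM + 1), with group alone and Benjamini-Hochberg adjustment, was run on the 12120 genes averaging 1 FPKM or more. It called 0 genes, which is 0%, at the 0.05 threshold. Before adjustment, limma p-values under 0.05 were found for 1079 genes (8.9%), 511 of them higher (4.22%) and 568 lower (4.69%). Of the members 5 exceeded that filter (Tead4, Tfap2c, Gata3, Elf3 and Cdx2), and none of these 5 was among the 1079. By group mean, 7 members were higher after Yy1 knockdown and 3 were lower. In 4 members (Gata3, Eomes, Tfap2a and Id2) both Yy1 knockdown libraries stood above both controls, and in Tfap2c both stood below. Among the 5 members tested 1 was above and 1 below in this way, and among the 5 not tested 3 were above. Such separation was common among all genes tested, 21.8% above and 18.9% below, 40.7% in either direction. Of the 17607 genes above 0 with a mean under 1 FPKM 16% were above and 9.14% below, 25.1% in either direction. The 3 low members above were Eomes, Tfap2a and Id2, the last from 13 and 1 fragments against 1 and 1. Their share was not tested against that of low genes. Of the 5 members tested 3 were higher and 2 lower, while of all genes tested 6446 (53.2%) were higher and 5674 lower. The median log2 fold change of these 5 members was 0.13, against 0.02 over all genes tested. With 2 libraries a group, an exact two-sided permutation test of a single gene cannot give a p under 0.333.

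Yy1 itself did not reach the threshold over all genes. It had 5.89 and 7.98 FPKM in Yy1 knockdown libraries, against 77.7 and 71.2 FPKM in control libraries, a log2 fold change of -3.26 ± 0.19 (SE), for which limma gave an adjusted p of 0.0556. Libraries held 29302489 to 34429515 fragments, recovered from the steps between FPKM values, and Poisson intervals below cover counting error only. Intervals of log2 fold changes come from limma and reflect the spread between libraries. Markers of the 8-cell embryo were present, with 8 of 9 listed genes at a mean of 1 FPKM or more. Of 14 cumulus and granulosa cell markers 1, Amhr2, reached that mean, and 5 (Inha, Has2, Fshr, Nr5a1 and Ptx3) were listed at 0 in all 4 libraries. These 14 summed to 9.85 and 9.23 FPKM in Yy1 knockdown libraries and 7.48 and 5.48 FPKM in control libraries. Amhr2 alone held most of this sum, at 7.8 and 7.3 FPKM in Yy1 knockdown libraries and 5.35 and 4.74 FPKM in control libraries (limma adjusted p = 0.541). Transcripts typical of the 2-cell stage, 9 in the list, summed to 124.7 and 145 FPKM in Yy1 knockdown libraries and 109.9 and 96.1 FPKM in control libraries, and 12 oocyte transcripts to 112.8 and 88.1 against 87.3 and 83.6 FPKM. Tdpoz4 held most of the 2-cell sum, at 77.4 and 101.5 FPKM in Yy1 knockdown libraries and 86.5 and 73.6 FPKM in control libraries. By gene, 8 of the 9 were higher after Yy1 knockdown, against 53.2% of all genes tested. The median log2 fold change was 0.82, that of Zscan4f, against 0.02 over all genes tested. Zscan4f overlapped between groups, at 3.49 and 0.906 FPKM in Yy1 knockdown libraries, against 0.193 and 1.32 FPKM in control libraries. In 3 of the 9 both knockdown libraries stood above both controls, against 21.8% of all genes tested, and the others overlapped. With 0 called, 2 (Tcstv3 and Tdpoz3) had an unadjusted limma p under 0.05, against 8.9% of all genes tested. Tcstv3, with the largest change of the 9, had 9.03 and 6.09 FPKM in Yy1 knockdown libraries, against 3.13 and 2.19 FPKM in control libraries (log2 fold change 1.22, limma adjusted p = 0.462). Its relative Tcstv1 stood the other way and overlapped, at 1.45 and 2.51 FPKM in Yy1 knockdown libraries, against 2.83 and 1.62 FPKM in control libraries (-0.11, limma adjusted p = 0.939). The part of any of these marker lists in the members' values was not tested.

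The promoter windows of Gata3, Eomes and Tfap2a are printed because their libraries separated in the same direction, and that of Cdx2 as the gene that defines the lineage. The window of Id2, which separated likewise but from 13 and 1 fragments against 1 and 1, is not printed. They come from RefSeq (GRCm38.p6, the assembly behind mm10), 250 bases before to 50 after the annotated start, 5′ to 3′ on the gene's strand. Capitals mark ATGGC, the letters at the core of the element that YY1 binds, searched on both strands (GCCAT on the other strand).
Gata3 (chr2:9878551-9878850, minus strand): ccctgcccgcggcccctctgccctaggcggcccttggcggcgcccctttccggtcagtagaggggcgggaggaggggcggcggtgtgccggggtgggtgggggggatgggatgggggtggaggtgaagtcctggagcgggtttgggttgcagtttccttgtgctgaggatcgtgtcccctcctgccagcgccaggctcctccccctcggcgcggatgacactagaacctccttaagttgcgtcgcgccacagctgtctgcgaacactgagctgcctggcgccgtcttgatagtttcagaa
Eomes (chr9:118477939-118478238, plus strand): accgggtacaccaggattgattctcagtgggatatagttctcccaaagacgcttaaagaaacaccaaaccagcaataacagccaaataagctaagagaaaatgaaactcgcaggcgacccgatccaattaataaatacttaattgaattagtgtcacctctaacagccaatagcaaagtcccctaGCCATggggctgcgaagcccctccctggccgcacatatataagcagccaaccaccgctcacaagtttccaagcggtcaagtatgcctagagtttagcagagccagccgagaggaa
Tfap2a (chr13:40734871-40735170, minus strand): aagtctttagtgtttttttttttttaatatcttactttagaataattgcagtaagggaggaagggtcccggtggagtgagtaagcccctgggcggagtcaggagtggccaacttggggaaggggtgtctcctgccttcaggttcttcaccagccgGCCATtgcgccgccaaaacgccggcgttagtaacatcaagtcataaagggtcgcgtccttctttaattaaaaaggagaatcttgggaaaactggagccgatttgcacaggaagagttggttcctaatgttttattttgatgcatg
Cdx2 (chr5:147307200-147307499, minus strand): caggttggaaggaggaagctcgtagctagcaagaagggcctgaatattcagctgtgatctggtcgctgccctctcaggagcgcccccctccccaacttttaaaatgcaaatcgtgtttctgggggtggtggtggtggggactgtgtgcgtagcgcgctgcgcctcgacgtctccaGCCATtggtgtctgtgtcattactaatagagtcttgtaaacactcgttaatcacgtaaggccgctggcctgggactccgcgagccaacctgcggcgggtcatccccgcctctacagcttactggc
The core letters lie 65 bases before the start in Eomes, 95 in Tfap2a, where a window for another start held none, and 75 in Cdx2. The Gata3 window has none. On the minus strand, Gata3 begins at 9887953 and Tfap2a at 40738238, so their windows lie at starts inside these genes. The outermost starts of Gata3 and Tfap2a had no window and were not searched. Id2 holds them 73 bases before its start, so 4 of the 8 members with a window had the core, in 4 of 10 windows, against 40.5% of all 32851 RefSeq windows of that length. GGAATG, letters that TEAD proteins bind, was in 2 of the 10, Elf3 and a window of Gata2, and in 14.7% of all. Matching letters do not show binding. Tfap2c and Tead4 had no entry in the table.

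Tead4 was the most abundant member and showed no detectable difference. It lies on chromosome 6 from 128227143 to 128300813 of mm10, and its product is the DNA-binding partner through which YAP and TAZ act. Tead4 had 78.1 and 65.9 FPKM in Yy1 knockdown libraries, against 80.2 and 67.9 FPKM in control libraries. The groups overlapped, with replicate 1 the higher library in both. Its mean was 72.02 ± 8.62 FPKM after Yy1 knockdown and 74.1 ± 8.72 FPKM after control knockdown (SD, n = 2 each). The log2 fold change was -0.04, with a 95% interval of -0.44 to 0.36 and a limma adjusted p of 0.956. Behind each value lay 6951 to 9938 fragments.

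Within the TEAD family, Tead4 made up nearly all of the summed level in both groups. Its share of the 4 genes' FPKM was 91.7% and 92.1% in Yy1 knockdown libraries and 91.4% and 90.8% in control libraries. Tead1 followed at 5.42 and 3.86 FPKM in Yy1 knockdown libraries, against 6.03 and 4.55 FPKM in control libraries. Tead2 averaged 1.13 FPKM and Tead3 0.662 FPKM over the 4 libraries. Tead4 was thus the leading TEAD gene in each of the 4 libraries.

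Tfap2c was the only member lower in both Yy1 knockdown libraries than in both controls. It encodes an AP-2 factor needed in the trophoblast and lies on chromosome 2 from 172545678 to 172558622. Tfap2c had 41.4 and 35.01 FPKM in Yy1 knockdown libraries, against 55.5 and 43.5 FPKM in control libraries. The higher knockdown library and the lower control library were 41.4 and 43.5 FPKM, so the groups barely separated. The mean was 38.2 ± 4.51 FPKM after Yy1 knockdown and 49.5 ± 8.51 FPKM after control knockdown (SD, n = 2 each), 1.3-fold lower. The log2 fold change was -0.36, with a 95% interval of -0.81 to 0.09 and a limma adjusted p of 0.623. It ranged from -0.53 (without control replicate 2) to -0.19 (without control replicate 1) when 1 library was left out. On fragments recovered from the FPKM, limma-voom gave -0.37 and an adjusted p of 0.61 (genes with at least 10 fragments, a setting chosen after seeing the data).

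Tfap2e and Tfap2a, at far lower levels, stood the other way. Tfap2e had 2.89 and 1.82 FPKM in Yy1 knockdown libraries, against 0.697 and 1.5 FPKM in control libraries (log2 fold change 0.68, limma adjusted p = 0.609). Tfap2a had 0.661 and 0.716 FPKM in Yy1 knockdown libraries, against 0.403 and 0.0982 FPKM in control libraries. The share of Tfap2c in the summed FPKM of the 5 AP-2 genes was 92.0% and 93.0% in Yy1 knockdown libraries, against 97.8% and 96.4% in control libraries, a difference given without a test. Tfap2d was listed at 0 in all 4 libraries, and Tfap2b averaged 0.0841 FPKM.

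Gata3 was higher in both Yy1 knockdown libraries than in both controls. It encodes a zinc finger factor that acts beside CDX2 downstream of TEAD4 and lies on chromosome 2 from 9857078 to 9887953. Gata3 had 5.02 and 4.23 FPKM in Yy1 knockdown libraries, against 3.48 and 3.08 FPKM in control libraries, from 681 and 493 fragments against 477 and 385. The 95% Poisson intervals, which cover counting error alone, ran from 4.65 to 5.42 and from 3.86 to 4.62 FPKM in Yy1 knockdown libraries, against 3.18 to 3.81 and 2.78 to 3.41 FPKM in control libraries. Its mean was 4.63 ± 0.562 FPKM after Yy1 knockdown and 3.28 ± 0.284 FPKM after control knockdown (SD, n = 2 each), 1.41-fold higher. The log2 fold change was 0.39, with a 95% interval of -0.13 to 0.91 and a limma adjusted p of 0.632. Annotated noncoding genes 4930412O13Rik and 9230102O04Rik overlap Gata3 and were at or below 0.0932 FPKM, and whether the authors counted by strand is not stated in the sources used here.

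Gata2, a close relative that supports trophoblast genes, was at the edge of detection. Gata2 had 0.125 and 0 FPKM in Yy1 knockdown libraries, against 0.113 and 0.0177 FPKM in control libraries, from 23 and 0 fragments against 21 and 3. Replicate 1 held nearly all of the fragments in both groups. In the library listed at 0, a level of 3 fragments would be 0.019 FPKM. Other GATA factors were far more abundant in these embryos than Gata3. Gata6, known for the primitive endoderm, had 65.5 and 50.7 FPKM in Yy1 knockdown libraries, against 60.6 and 57.4 FPKM in control libraries. Gata4 averaged 18.3 FPKM and Gata1 15.4 FPKM over the 4 libraries, and Gata5 was listed at 0. Gata3 was 4.54% and 5% of the summed FPKM of the 6 GATA genes in Yy1 knockdown libraries, against 3.34% and 3.62% in control libraries.

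**Figure D2:**
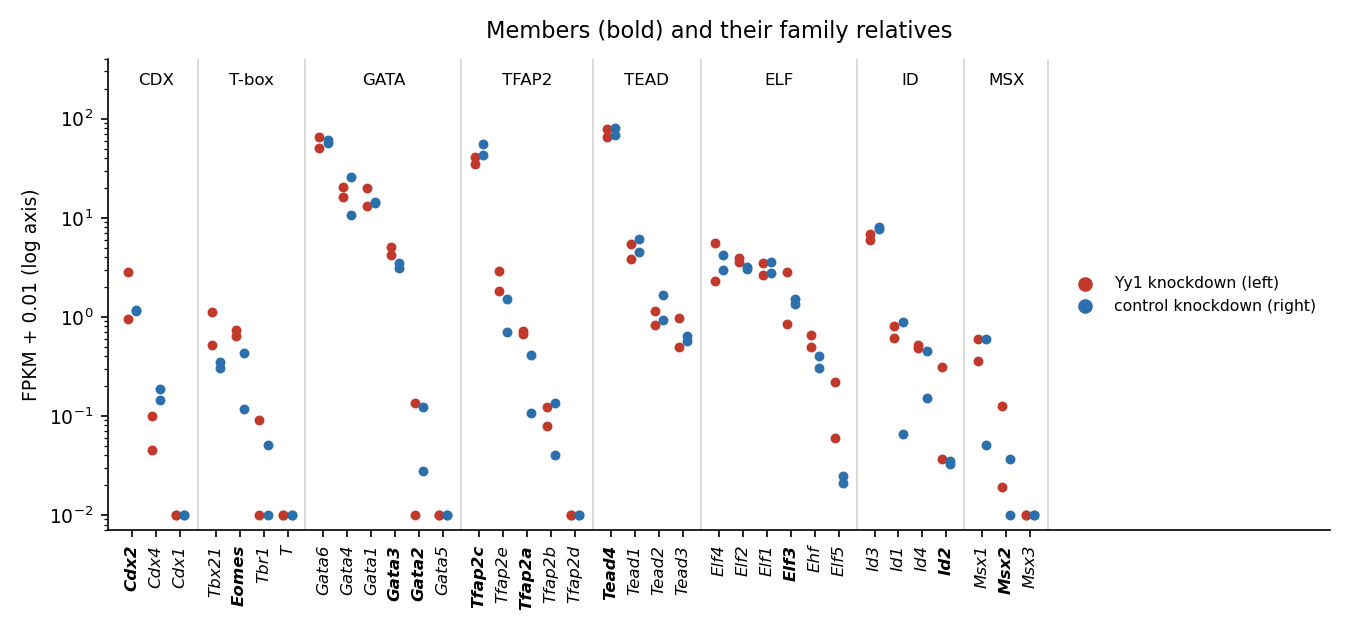
FPKM + 0.01 on a log axis of the 10 members (bold) and their family relatives, with 1 point per library, Yy1 knockdown in red on the left and control knockdown in blue on the right of each gene. Genes are sorted by level within a family. Tead4 and Tfap2c lead their families, while Gata6, Gata4 and Gata1 exceed Gata3, and Id3 exceeds Id2.

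Cdx2 was near 1 FPKM in 3 of the 4 libraries and higher in the other. It encodes the homeobox factor that commits cells to the trophectoderm and lies on chromosome 5 from 147300900 to 147307249. Cdx2 had 2.83 and 0.951 FPKM in Yy1 knockdown libraries, against 1.16 and 1.14 FPKM in control libraries, from 218 and 63 fragments against 90 and 81. Yy1 knockdown replicate 1 was the highest library and replicate 2 the lowest, so the groups overlapped and the knockdown replicates differed 2.98-fold. The 95% Poisson intervals of these knockdown libraries, 2.47 to 3.23 and 0.731 to 1.22 FPKM, did not meet. Across genes tested, replicates also varied beyond counting error (chi-square per degree of freedom 50.44 between knockdown replicates, 75.1 between control replicates). The log2 fold change was 0.35, with a 95% interval of -0.62 to 1.31 and a limma adjusted p of 0.81. Without Yy1 knockdown replicate 1 it was -0.14, and without replicate 2 it was 0.83. Its relatives were scarce, with Cdx1 listed at 0 in all 4 libraries and Cdx4 at 0.109 FPKM on average.

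Elf3 followed the pattern of Cdx2 across libraries. It encodes an epithelial factor of the ETS family and lies on chromosome 1 from 135253574 to 135258472. Elf3 had 2.83 and 0.831 FPKM in Yy1 knockdown libraries, against 1.52 and 1.34 FPKM in control libraries, from 214 and 54 fragments against 116 and 93. Knockdown replicate 1 was again the highest and replicate 2 the lowest, 3.41-fold apart. The log2 fold change was 0.13, with a 95% interval of -0.89 to 1.14 and a limma adjusted p of 0.946. Without Yy1 knockdown replicate 1 it was -0.41, and without replicate 2 it was 0.66. Elf4, Elf2 and Elf1, broadly used relatives, averaged 3.78, 3.42 and 3.11 FPKM, above Elf3. Elf5, which sustains trophoblast stem cells, averaged 0.0712 FPKM.

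Yy1 knockdown replicate 1 was the highest library in 6 of the 10 members, replicate 2 in 2, control replicate 1 in 2 and control replicate 2 in none. Among the 5 members tested it was Yy1 knockdown replicate 1 in 3 and control replicate 1 in 2. Of all genes tested, Yy1 knockdown replicate 1 was the highest in 28.1%, replicate 2 in 24.9%, control replicate 1 in 18.9% and control replicate 2 in 28.2%. Hand1, a basic helix-loop-helix factor of trophoblast giant cells, also had its highest value there, with 160.4 and 54.5 FPKM in Yy1 knockdown libraries against 91.7 and 54.1 FPKM in control libraries. In 6 of the 10 members the larger gap between replicates exceeded the difference between groups on the log2(FPKM + 1) scale. It did so in 3 of the 5 members tested, against 71.3% of all genes tested. The 4 of 10 in which it did not were Gata3, Tfap2c, Eomes and Tfap2a.

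**Figure D3:**
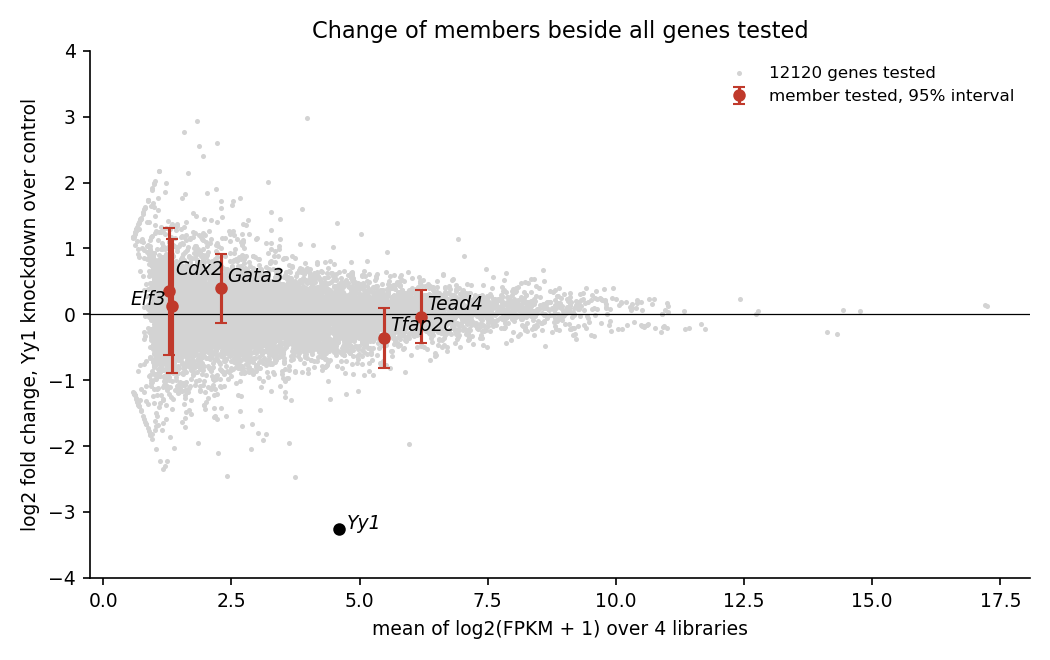
Log2 fold change of Yy1 knockdown over control against the mean of log2(FPKM + 1) for the 12120 genes tested (grey), with the 5 members tested in red and their 95% limma intervals. The intervals of all 5 members cross 0, and Yy1 (black) stands at -3.26.

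The other 5 members had a mean under 1 FPKM and were not tested at that filter. Eomes encodes a T-box factor of the trophoblast and lies on chromosome 9 from 118478186 to 118486132. Eomes had 0.735 and 0.624 FPKM in Yy1 knockdown libraries, against 0.426 and 0.107 FPKM in control libraries, from 104 and 76 fragments against 61 and 14. Both knockdown libraries were above both controls, but the controls differed 3.97-fold from each other. The knockdown mean was 2.55-fold above the control mean, 1.59-fold above control replicate 1 and 6.33-fold above control replicate 2. With no filter, limma gave a log2 fold change of 0.42 on the log2(FPKM + 1) scale, which understates the change of low genes, and an adjusted p of 0.797. On recovered fragments limma-voom gave 1.61, with a 95% interval of 0.04 to 3.17 and an adjusted p of 0.614. Tbx21, its relative, had 1.12 and 0.508 FPKM in Yy1 knockdown libraries and 0.339 and 0.294 FPKM in control libraries, with a mean under the filter.

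Tfap2a, like Eomes, had its lowest value in control replicate 2. It encodes the AP-2 factor known from trophoblast and neural crest and lies on chromosome 13 from 40713802 to 40738238. Behind its FPKM values, given above, were 73 and 68 fragments in Yy1 knockdown libraries, against 45 and 10 in control libraries. The knockdown libraries were close together, while the controls differed 4.1-fold. The knockdown mean was 2.75-fold above the control mean, 1.71-fold above control replicate 1 and 7.01-fold above control replicate 2. With no filter, limma gave 0.44 and an adjusted p of 0.797, and limma-voom on recovered fragments gave 1.71, with a 95% interval of -0.03 to 3.45 and an adjusted p of 0.63.

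Id2 and Msx2 were close to absent from the table's counts. Id2 encodes an inhibitor of helix-loop-helix factors that marks outer cells of later embryos, and Msx2 a homeobox repressor. Id2 had 0.3 and 0.0269 FPKM in Yy1 knockdown libraries, against 0.0229 and 0.0251 FPKM in control libraries, from 13 and 1 fragments against 1 and 1. Its separation between groups thus rests on 3 libraries with 1 fragment each, whose FPKM differ only through depth, and on 1 knockdown library. Msx2 had 0.00895 and 0.114 FPKM in Yy1 knockdown libraries, against 0.0266 and 0 FPKM in control libraries, from 1 and 11 fragments against 3 and 0. With no filter, limma gave adjusted p-values of 0.797 for Id2 and 0.806 for Msx2, so no difference between the groups was detected. Knockdown replicates also disagreed, with 13 and 1 fragments in Id2 and 1 and 11 in Msx2. Id3 was the ID gene in use, at 5.96 and 6.9 FPKM in Yy1 knockdown libraries, against 7.72 and 8.07 FPKM in control libraries (log2 fold change -0.26, limma adjusted p = 0.691). Msx1 averaged 0.389 FPKM, and Msx3 was listed at 0.

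**Figure D4:**
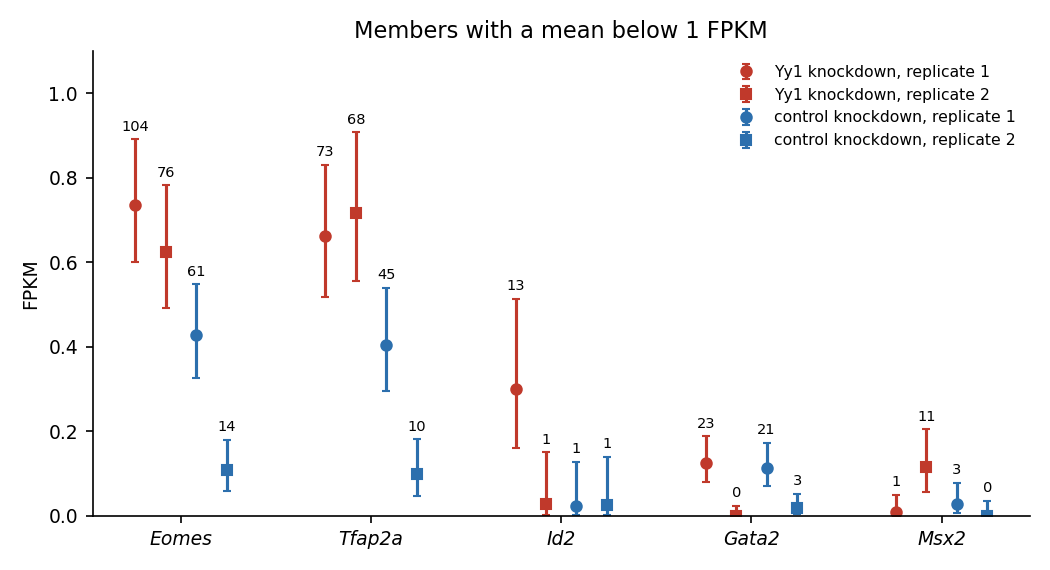
FPKM of the 5 members with a mean below 1 FPKM, with 1 point per library, 95% Poisson intervals from the recovered fragments and the number of fragments above each. Yy1 knockdown libraries (red) lie left of control libraries (blue). Eomes and Tfap2a have 68 to 104 fragments in the knockdown libraries and 10 to 61 in the controls, and no other member here has more than 23.

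Genes that act with or after the members were divided. Of 25 family relatives, 10 were tested, 5 higher and 5 lower, with a median log2 fold change of 0.01. Of 13 other trophoblast factors, 7 were tested, 5 higher and 2 lower (median 0.17). Klf5, known for the trophectoderm, was the most abundant, at 244.9 and 194.4 FPKM in Yy1 knockdown libraries, against 232.2 and 221.9 FPKM in control libraries. Bhlhe40 had 3.04 and 1.07 FPKM in Yy1 knockdown libraries, against 0.87 and 0.616 FPKM in control libraries (limma adjusted p = 0.634). Tbx3, a T-box factor, had 72.4 and 57.6 FPKM in Yy1 knockdown libraries, against 83.8 and 75.9 FPKM in control libraries (adjusted p = 0.641). None of these genes passed over all genes tested.

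Inputs to TEAD4 and Cdx2 from the Hippo and Notch pathways stood on both sides of 0. Of 17 listed genes 15 were tested, 7 higher and 8 lower, with a median of -0.08 and 0 called. Yap1, a coactivator of TEAD4, had 19.5 and 17.7 FPKM in Yy1 knockdown libraries, against 20.1 and 19.5 FPKM in control libraries. Wwtr1, which encodes TAZ, had 23.3 and 19.6 FPKM in Yy1 knockdown libraries, against 17.1 and 13.1 FPKM in control libraries (log2 fold change 0.49, limma adjusted p = 0.561). Of the 3 angiomotin genes, whose products hold YAP in the cytoplasm, Amotl2 and Amot stood higher in both knockdown libraries than in both controls without passing the test, while Amotl1 averaged 0.724 FPKM and overlapped. Amotl2 had 14.7 and 19.8 FPKM in Yy1 knockdown libraries, against 11.9 and 6.7 FPKM in control libraries (0.86, adjusted p = 0.532). Amot had 28.7 and 22.9 FPKM in Yy1 knockdown libraries, against 11.6 and 20.4 FPKM in control libraries (0.70, adjusted p = 0.566). Lats1, a Hippo kinase that marks YAP for exclusion from the nucleus, had 3.82 and 2.79 FPKM in Yy1 knockdown libraries, against 4.95 and 4.89 FPKM in control libraries (-0.47, adjusted p = 0.604). Its relative Lats2 stood the other way (0.30, limma adjusted p = 0.672). Lats2 had 6.9 and 8.03 FPKM in Yy1 knockdown libraries, against 5.71 and 5.99 FPKM in control libraries.

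Of 18 genes of the trophectoderm epithelium 15 were tested, 10 higher and 5 lower (median 0.08, range -0.82 to 1.60) and 0 called. In 6 both knockdown libraries stood above both controls and in 2 below, against 21.8% and 18.9% of all genes tested. Before adjustment, limma p-values were under 0.05 in 3 higher and 2 lower genes, against 4.22% and 4.69% of all genes tested. Whether the list differs from all genes was not tested. Krt18, a keratin, had 20.8 and 28.6 FPKM in Yy1 knockdown libraries, against 4.52 and 11.7 FPKM in control libraries (limma adjusted p = 0.5). Krt8, another keratin, had 31.6 and 23.5 FPKM in Yy1 knockdown libraries, against 11.1 and 20.7 FPKM in control libraries (adjusted p = 0.556). Cldn6, a claudin, had 2.46 and 2.47 FPKM in Yy1 knockdown libraries, against 0.906 and 1.37 FPKM in control libraries (adjusted p = 0.541). Cldn4 had 31.01 FPKM in both Yy1 knockdown libraries, against 41.2 FPKM in both control libraries (adjusted p = 0.532). Ocln, which encodes the tight junction protein occludin, had 6.3 and 3.01 FPKM in Yy1 knockdown libraries, against 8.91 and 8.18 FPKM in control libraries (adjusted p = 0.556). Junction genes thus stood on both sides.

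Factors of the inner cell mass were lower in 8 of the 10 tested and higher in 2, against 5674 lower and 6446 higher over all genes tested. Their median was -0.16, against 0.02 over all genes tested, and 0 were called. Among the 8 lower, Nanog (-0.01), Esrrb (-0.08) and Klf2 (-0.17) overlapped between the groups. Zfp42, a relative of Yy1, had 5.43 and 3.99 FPKM in Yy1 knockdown libraries, against 30.7 and 30.2 FPKM in control libraries (log2 fold change -2.47, limma adjusted p = 0.0928). Klf4 had 22.1 and 16.5 FPKM in Yy1 knockdown libraries, against 26.4 and 31.4 FPKM in control libraries (-0.57, adjusted p = 0.532), and Tfcp2l1 15.1 and 13.4 against 18.1 and 24.4 FPKM (-0.53, adjusted p = 0.548). Klf17 stood the other way, at 83.3 and 69.2 FPKM in Yy1 knockdown libraries, against 61.2 and 38.2 FPKM in control libraries (0.64, adjusted p = 0.556). Pou5f1, the gene that CDX2 opposes in the blastocyst, had 177.7 and 190 FPKM in Yy1 knockdown libraries, against 195 and 213.9 FPKM in control libraries.

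**Figure D5:**
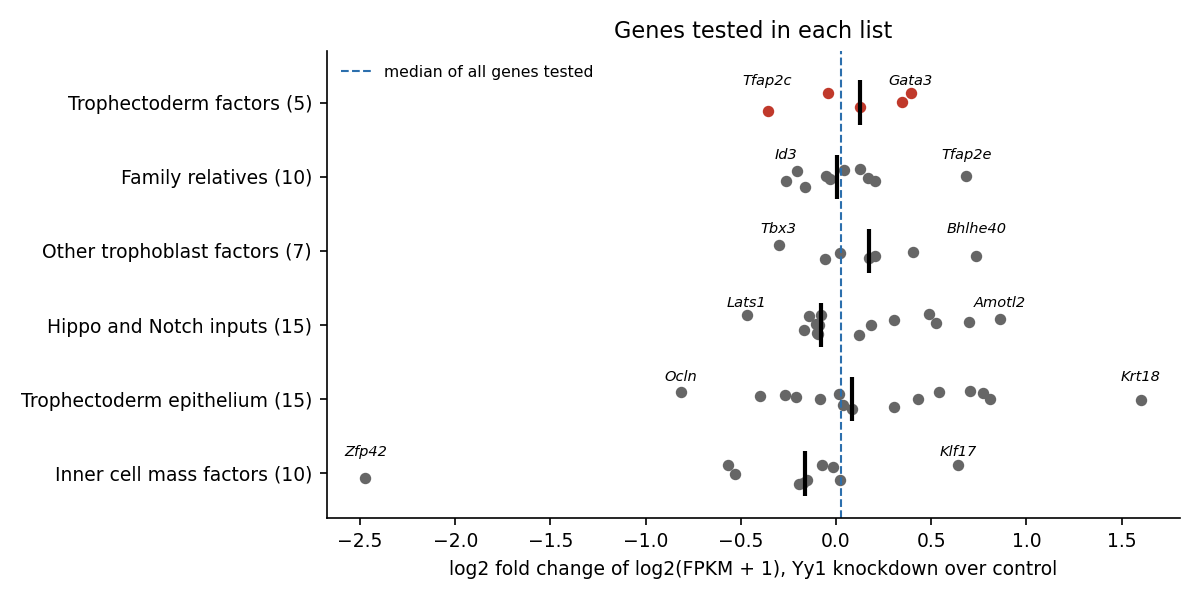
Log2 fold change, on the log2(FPKM + 1) scale, of each gene tested in 6 lists, with the number tested in brackets, black bars for list medians and a dashed line for the median of all genes tested (0.02). The trophectoderm factors lie between -0.36 and 0.39, while the epithelium list reaches from -0.82 (Ocln) to 1.60 (Krt18) and the inner cell mass list down to -2.47 (Zfp42).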

How the data were processed

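The authors deposited FPKM, 1 column per library. Tools listed without roles in the submitters' processing notes include featureCounts, HISAT2 2.2.1 and Trim Galore 0.6.7, with mm10 as the build. Their annotation and strand setting are not stated in the sources used here. Groups come from the sample titles.

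Members and gene lists were chosen with earlier results of these data known. Genes averaging 1 FPKM or more were tested on log2(FPKM + 1), without further scaling, with limma 3.58.1 in R 4.3.3 (group alone, mean-variance trend, Benjamini-Hochberg over 12120 genes, threshold 0.05). Whole fragments came from the steps between values, in 12119 of 12120 genes within 0.02 fragments. PCR copies are not independent molecules. Fit and recovery were tested on simulated data. Named genes are the members, Yy1, up to 4 genes per pathway list by smallest p and leading relatives. Klf5, Yap1, Lats2, Pou5f1, Nanog, Esrrb, Klf2, Tbx21, Elf5 and other low relatives were added after their values were seen. RefSeq (GRCm38.p6) supplied gene coordinates.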

Additional observations from a re-analysis of the deposited data

How the results depend on the processing

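No member was called under any alternative run, and the lowest limma adjusted p of a member was 0.487 (Tfap2c, with the replicate block). Of 62 values of the 5 tested members under alternatives, 58 kept direction and 4 turned, each in a fit without 1 library. Leaving out 1 library moved the log2 fold change of Tead4 over -0.16 to 0.081, of Cdx2 over -0.14 to 0.83 and of Elf3 over -0.41 to 0.66, and among other genes of Gata1 over -0.10 to 0.44, Sox21 over -0.0044 to 0.42 and Hand1 over -0.36 to 1.18. Members higher by group mean, 7 of 10, numbered 5 to 9 in those fits and 7 with the other pseudocount, filters, median-ratio scaling, the replicate block and robust eBayes. It was not counted under quantile normalization or limma-voom. Without 1 library, other values moved by over 1.5 times with no change of direction, among them Amot (0.32 to 1.08), Amotl2 (0.49 to 1.23), Krt18 (1 to 2.203), Klf17 (0.31 to 0.97), Ocln (-1.25 to -0.39), Bhlhe40 (0.25 to 1.22) and Tfap2e (0.41 to 0.96).

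Genes called over all genes numbered 0 with a pseudocount of 0.1, no filter, quantile normalization, median-ratio scaling, the replicate block and each library left out, where the lone library of a group is assumed to vary like the other group. They numbered 4 with a filter of 5 FPKM, where fewer genes are tested (Gm13230 and Baz1a, both named after their values were seen, with Zfp42 and Yy1), 1 with robust eBayes (Yy1), and, in settings added after seeing the data, 13 with limma-voom on the same genes and 30 with limma-voom on genes with at least 10 fragments. For the filter of 5 FPKM, robust eBayes and voom the cause was not tested. The labels do not say what a replicate number shares, and deviations of same-numbered libraries correlated at 0.0994 across genes, so the block is given here alone.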
